A study of Mus musculus with 3 samples.

Results

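TR binding sites (TRBS, hereafter sites) of TRα1 were examined at the nuclear genes of the mitochondrial respiratory complexes, in a ChIP-seq experiment on the striatum. The members were the protein-coding nuclear genes of GENCODE vM21 (build GRCm38) with a symbol that begins with Nduf, Uqcr or Atp5, with Cox followed by a digit from 4 to 8, or that is Sdha, Sdhb, Sdhc, Sdhd, Cyc1 or Cycs. This gave 96 genes of 21938 protein-coding nuclear genes, with 95 different symbols, because Atp5o had 2 entries in the annotation. The mice were euthyroid adult males of the C57BL/6J background with the genotype TRa1 GS-tagged and no treatment, labelled with an age of 8 without a unit. The tagged receptor was expressed in the GABAergic neurons of the striatum, and it is the tagged form, not the native receptor, that was precipitated. The series held 2 ChIP libraries and 1 input library from mice of this one kind, and no other genotype or treatment was analysed here. The processed data were 1 list of 23988 sites without values for each library, so that no error between animals could be given and no test between conditions was possible. All intervals in this text are 95% intervals that cover counting error only, by the method of Wilson for shares, by the exact Poisson method for pileup and from order statistics for medians.

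The respiratory chain passes electrons from NADH (complex I) and succinate (complex II) through complex III and cytochrome c to oxygen (complex IV), and the proton gradient that results drives ATP synthase (complex V). Most subunits are encoded in the nucleus and a few in mitochondrial DNA, so that the 2 genomes have to be expressed together. Thyroid hormone has long been known to raise oxygen consumption and mitochondrial mass in many tissues. TRα1 is a nuclear receptor for this hormone, which binds DNA mainly as a heterodimer with RXR on the DR4 element, which joins 2 copies of the half-site AGGTCA in the same direction with 4 bp between them. The nuclear respiratory genes are also classical targets of NRF1, of the ETS factor GABP and of the estrogen-related receptors (ERR), whose DNA element contains the same half-site.

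A site was linked to a gene when its summit lay in the gene body or within 10 kb of the 5-prime end, here called the TSS. Of the 96 members, 60 had at least 1 linked site, or 62.5% (52.5 to 71.5%), while 44.7% of all protein-coding genes had one by the same rule. For 47 members a summit lay within 1 kb of the TSS, hereafter at the TSS, or 49% (39.2 to 58.8%), against 23.2% of all protein-coding genes. A linked site with DR4 at its summit was present at 11 members, or 11.5% (6.52 to 19.4%), against 9.59% of all genes. The share of members with a site at the TSS was thus well above that of all genes, whereas the share with a linked DR4 site was close to it. With only the stronger sites, of a score of at least 200, the linked share of the members, 22.9%, was close to the 21.9% of all genes, and at the TSS the shares were 16.7% and 9.22%. These shares describe 1 peak list, and no test was made of them.

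A higher share at the TSS was also seen when genes of like promoter composition or length were taken. The members had a median promoter GC content of 56.2%, against 55% for all genes. Among the 6427 genes with a promoter GC content in the interquartile range of the members, 22.4% had a site at the TSS, and for the 48 members in that range the share was 50.0% (36.4 to 63.6%). The members were short, with a median length of 7.33 kb against 17.4 kb, and of 6124 genes in their interquartile range of length 31.7% had a linked site and 18.0% a site at the TSS, while for the 48 members in that range the shares were 66.7% (52.5 to 78.3%) and 62.5% (48.4 to 74.8%). The genes of the mitochondrial ribosome, which are also nuclear genes for a mitochondrial machine, had shares close to those of the members. Of these 78 genes, 61.5% (50.4 to 71.6%) had a linked site and 46.2% (35.5 to 57.1%) a site at the TSS. Of the 82 genes of the cytosolic ribosome, 53.7% (42.9 to 64.0%) had a linked site and 31.7% (22.6 to 42.4%) one at the TSS, and both intervals overlap those of the members. Expression in these neurons was not used here, and the part of gene activity in these shares was not tested.

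**Figure D1:**
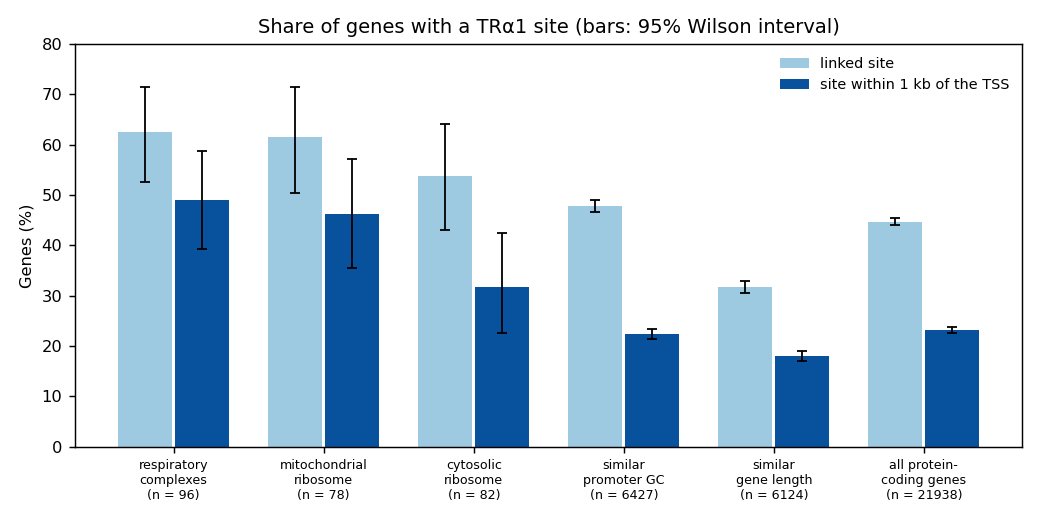
Share of genes (%) with a linked site (light bars) and with a site within 1 kb of the TSS (dark bars) in 6 sets of genes, with 95% Wilson intervals for counting error. At the TSS the respiratory genes (49%) and the genes of the mitochondrial ribosome (46.2%) lie above all protein-coding genes (23.2%).

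Many members share their promoter region with a neighbour. For 35 members, or 36.5%, a protein-coding TSS on the opposite strand lay within 1 kb, against 10.9% of all genes. Of these 35 members, 18 had a site at the TSS (51.4%), and of the 61 members without such a neighbour 29 had one (47.5%). Over all genes the shares were 41.0% with and 21.0% without an opposite TSS. Within the members, a site at the TSS was therefore about as frequent with as without a shared promoter.

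The 60 members were linked to 83 sites, none of which was shared between members. Of these, 48 lay within 1 kb of the TSS of the member, or 57.8% (47.1 to 67.9%), while of the 17566 sites linked to any protein-coding gene 27.9% lay within 1 kb of a TSS. The gene body counts towards the link, so that long genes have more sequence beyond 1 kb in which a site can lie. The members were short (median 7.33 kb against 17.4 kb), and the part of gene length in these 2 shares was not tested. There were 44 members with 1 site, 13 with 2, and 1 each with 3 (Ndufaf2), 4 (Atp5b) and 6 (Atp5d). By place in the linked gene, 27 of the 83 summits were upstream, 24 in an intron, 10 in an untranslated exon, 8 in a coding exon, 5 in an exon of a noncoding transcript and 9 downstream. The sites at the TSS were close to it, with a median distance of 176 bp, and 30 of 48 lay downstream (62.5%, against 59.8% of all sites at a TSS). For 39 of the 48 the nearest protein-coding TSS was that of the member, and for 9 it was that of a neighbour. These 9 were the sites of Ndufa13, Ndufs6, Ndufv3, Sdhd, Uqcrh, Cox4i1, Atp5a1, Atp5f1 and Atp5j. Of the 35 more distant sites, 18 were nearer to the TSS of another gene, 9 of them within 1 kb of it.

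Enrichment at the TSS of the members was not unusual in height. The fold enrichment of the authors, which sets the fragment pileup at the summit against the local background, had a median of 7.21 (6.25 to 8.49) over the 48 sites, against 7.81 over the 4894 sites at any protein-coding TSS. The range was wide, from 4.52 at Ndufa13 to 54.4 at Ndufa1. With 5 of 48 sites in the top 10% of the whole list (fold enrichment of at least 18.8), the members had 10.4% (4.53 to 22.2%) there, against 11.9% of all sites at a TSS. The median was 7.22 (6.29 to 9.08) at the genes of the mitochondrial ribosome and 8.93 (6.20 to 11.6) at those of the cytosolic ribosome. The share of members with a site was thus higher than over all genes, while the median height of their sites was not.

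**Figure D2:**
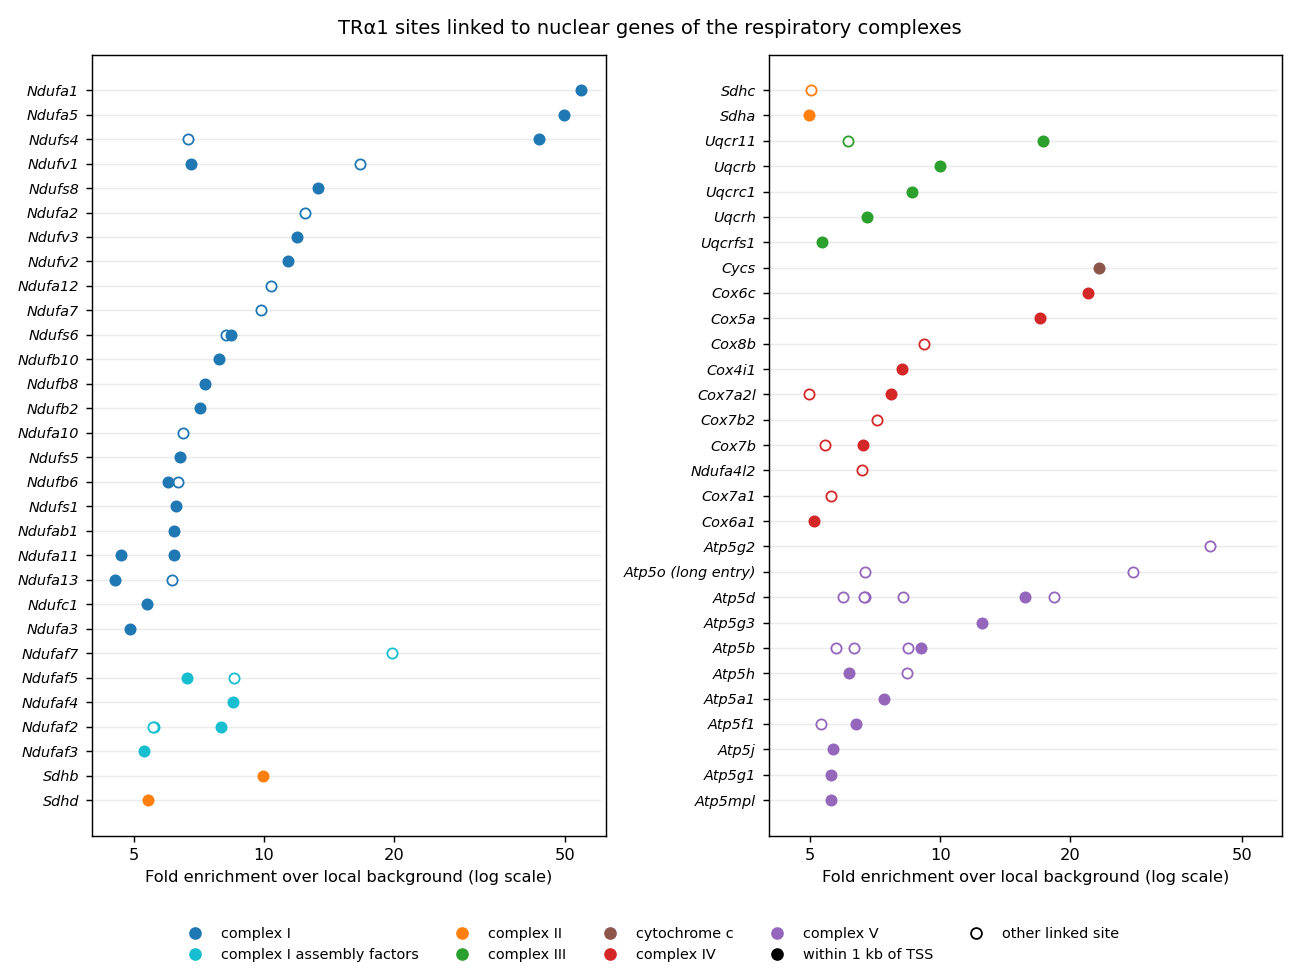
Fold enrichment (log scale) of 82 linked sites at 59 of the members, 1 row for each gene and 1 point for each site, coloured by complex. Filled points are sites within 1 kb of the TSS and open points are the other linked sites. The points at Ndufa1, Ndufa5, Ndufs4 and Atp5g2 lie above 40, and most of the others lie between 5 and 10.

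By complex, sites at the TSS were found for 19 of 36 genes of complex I (52.8%, 37.0 to 68.0%), 4 of 8 assembly factors of complex I, 3 of 4 genes of complex II, 5 of 9 of complex III, the single member for cytochrome c, 6 of 20 of complex IV (30%, 14.5 to 51.9%) and 9 of 18 of complex V (50.0%, 29.0 to 71.0%). Complex IV thus had the smallest share of the 7 groups, but its interval overlaps that of complex I. The share over all protein-coding genes, 23.2%, lies within the interval of complex IV and below those of complexes I and V. Its genes include 8 tissue-restricted or inducible isoforms, of which 0 had a site at the TSS. The part of these isoforms in the share of complex IV was not tested. Ndufa4 and Ndufa4l2 were counted with complex IV, to which their proteins belong in spite of their names.

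**Figure D3:**
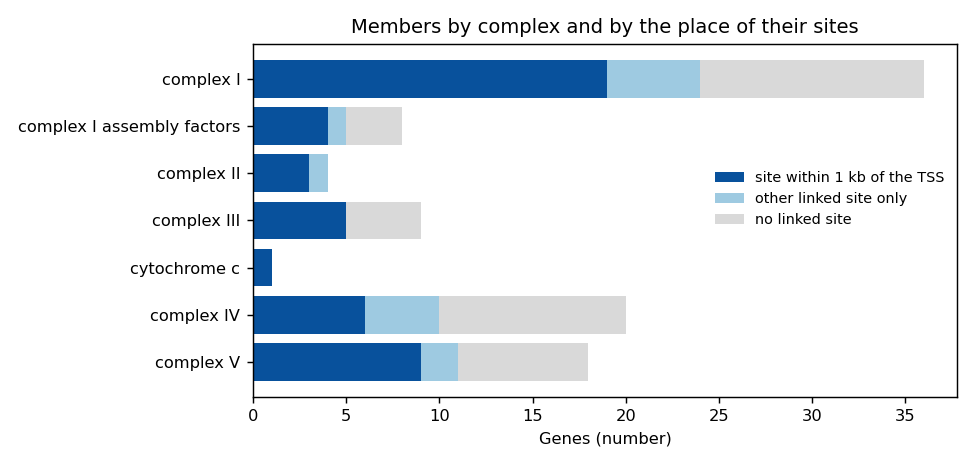
Number of members in each complex with a site within 1 kb of the TSS (dark), with another linked site only (light) and without a linked site (grey). Complex I has 19, 5 and 12 genes in these classes and complex IV has 6, 4 and 10.

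The 3 strongest sites at a TSS belonged to complex I, the NADH dehydrogenase. Ndufa1, a small accessory subunit of the membrane arm, had the highest value of all members, with a fold enrichment of 54.4 and a pileup of 146 (123 to 172) at 28 bp upstream of the TSS. This site (chrX:37190682-37191417) also spans the TSS of Rnf113a1, 82 bp away on the opposite strand, and its summit lies between both TSSs. Ndufa5, an accessory subunit of the peripheral arm, had a fold enrichment of 49.7 and a pileup of 152 (129 to 178) at 410 bp downstream of the TSS, in an untranslated exon (chr6:24527080-24527864). Ndufs4, an accessory subunit whose loss in mice models Leigh syndrome, had a fold enrichment of 43.5 and the highest pileup of all members, 180 (155 to 208), in an intron at 383 bp from the TSS (chr13:114387469-114388238). It had a weaker site with a fold enrichment of 6.69, deeper in the gene at 83328 bp. After these, the values of complex I fell steeply, and the next site within 1 kb was that of Ndufs8 with 13.3.

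The catalytic core of complex I carries the flavin and the iron-sulfur clusters. Of its nuclear subunits, 4 had a site at the TSS. These were Ndufs8 (fold enrichment 13.3 at 253 bp upstream), Ndufv2 (11.4 at 21 bp upstream), Ndufv1 (6.78 at 25 bp downstream) and Ndufs1 (6.25 at 89 bp upstream). Ndufs3 and Ndufs7 had no linked site. The stronger site linked to Ndufv1, with a fold enrichment of 16.7, lay 9438 bp downstream and 55 bp from the TSS of Doc2g. Core subunits thus included genes with a site directly at the TSS and genes without any.

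Among the other accessory subunits, the fold enrichment at the TSS was 12 for Ndufv3, 8.39 for Ndufs6, 7.87 for Ndufb10, 7.30 for Ndufb8, 7.13 for Ndufb2, 6.41 for Ndufs5, 6.20 for Ndufab1, the mitochondrial acyl carrier protein, 5.99 for Ndufb6, 5.36 for Ndufc1 and 4.90 for Ndufa3. Ndufa11 had a pair of sites, with 6.19 at 550 bp and 4.67 at 120 bp upstream. Ndufa13, also known as GRIM-19, had the lowest value of all members at the TSS, 4.52, with a pileup of 20 (12.2 to 30.9), and its summit was nearer to the TSS of Yjefn3. Ndufa12, Ndufa10, Ndufa7 and Ndufa2 had linked sites beyond 1 kb only. The site of Ndufa2, with 12.5, had its summit 129 bp from the TSS of Tmco6. The site of Ndufa7, with 9.85, lay in the body of Kank3, at 6388 bp from the TSS of Ndufa7 and 6378 bp from that of Rps28. No site was linked to Ndufa6, Ndufa8, Ndufa9, Ndufb3, Ndufb4, Ndufb5, Ndufb7, Ndufb9, Ndufb11, Ndufc2, Ndufs3 and Ndufs7.

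The assembly factors with the prefix Ndufaf help to build complex I and are not part of it. Ndufaf4, Ndufaf2, Ndufaf5 and Ndufaf3 had a site at the TSS, with fold enrichments of 8.49, 7.94, 6.66 and 5.29. Ndufaf2 had 2 more sites far inside its long gene, at 78552 and 152930 bp from the TSS, with values of 5.55 and 5.58. Ndufaf7, an arginine methyltransferase, was linked to a stronger site of 19.9 with a pileup of 72 (56.3 to 90.7), but this summit lay 4911 bp upstream, in the body of Cebpz. Ndufaf1, Ndufaf6 and Ndufaf8 had no linked site.

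Complex II, succinate dehydrogenase, is the only complex of the chain without a subunit from mitochondrial DNA. All 4 of its genes had a linked site, of modest height. Sdhb, the iron-sulfur subunit, had a fold enrichment of 9.98 with a pileup of 37 (26.1 to 51.0) at 16 bp downstream of the TSS. Sdhd, a membrane anchor, had 5.39 with a pileup of 15 (8.40 to 24.7) at 68 bp upstream, and this summit lay 30 bp from the TSS of Timm8b. Sdha, the flavoprotein, had 4.95 with a pileup of 16 (9.15 to 26.0) at 287 bp downstream. Sdhc, the other anchor, had 5.02 with a pileup of 15 (8.40 to 24.7) at 1290 bp, just outside the 1 kb window. Only the value of Sdhb was above the median of the 48 sites at a TSS.

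In complex III, the cytochrome bc1 complex, each gene with a linked site had one at the TSS. Uqcr11, a small accessory subunit, had the highest value with a fold enrichment of 17.3 and a pileup of 50 (37.1 to 65.9), in a coding exon 104 bp downstream of the TSS. Uqcrb followed with 9.97, the core protein Uqcrc1 with 8.58, Uqcrh with 6.76 and Uqcrfs1, the Rieske iron-sulfur protein, with 5.33. Uqcr10, Uqcrq, the core protein Uqcrc2 and Cyc1, the cytochrome c1 subunit, had no linked site. The nearest site to Cyc1 was 11206 bp downstream with a fold enrichment of 5.95, at 297 bp from the TSS of Gm35339. Cycs, the cytochrome c of somatic cells that carries electrons from complex III to complex IV, had a site of 23.3 with a pileup of 79 (62.5 to 98.5) at 121 bp upstream of the TSS (chr6:50566251-50567076). The gene of soluble cytochrome c was thus linked to one of the 10 strongest of the 83 sites, and the gene of bound cytochrome c1 to none.

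Complex IV, cytochrome c oxidase, has several subunits with a tissue-restricted or inducible isoform beside the widely expressed one. Cox6c and Cox5a, which have no such partner, had the highest values, 22.0 with a pileup of 73 (57.2 to 91.8) at 248 bp downstream and 17 with a pileup of 59 (44.9 to 76.1) at 452 bp upstream of the TSS. Of the 7 widely expressed partners, 3 had a site at the TSS, namely Cox4i1 (8.15 at 93 bp upstream), Cox7b (6.62 at 184 bp downstream) and Cox6a1 (5.10 at 168 bp downstream). Cox6b1, Cox7a2, Cox8a and Ndufa4 had no linked site. Of the 8 restricted or inducible isoforms, 4 had a linked site and 0 had one within 1 kb of the TSS. The muscle isoforms Cox7a1 and Cox8b had sites of 5.58 at 3872 bp downstream and 9.17 at 8389 bp upstream, Cox7b2, known from testis, had one of 7.15 in an intron at 27681 bp, and Ndufa4l2, induced by hypoxia, had one of 6.58 at 2627 bp upstream. Cox4i2, Cox6a2, Cox6b2 and Cox8c had no linked site. With 7 and 8 genes the lists are too small for the shares at the TSS, 42.9% and 0%, to be compared. Cox7a2l, which links complexes III and IV in supercomplexes, had sites of 7.68 at 541 bp and 4.95 at 2352 bp upstream. Cox5b and Cox7c had none.

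Complex V, the ATP synthase, held the members with the most sites. Atp5d, the delta subunit of the central stalk, was linked to 6 sites between 1212 bp upstream and 9409 bp downstream of its TSS. Their fold enrichments, in order along the gene, were 6.69, 15.7, 18.4, 6.66, 8.18 and 5.95. The second of them was at 293 bp and is its site at the TSS, while the strongest, with a pileup of 62 (47.5 to 79.5), lay at 2917 bp and only 714 bp from the TSS of Cbarp. The sites thus form a cluster over several genes, and those at the far end are nearer to the TSS of Midn. Atp5b, the catalytic beta subunit, had 4 sites, of which the one at the TSS had a value of 9.0 at 275 bp upstream and the other 3, with 8.40, 5.74 and 6.32, lay behind the gene, within 1665 bp of the TSS of Baz2a. Atp5a1, the alpha subunit, had 1 site of 7.39 at 765 bp downstream, nearer to the TSS of Haus1.

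Subunit c, the proton-carrying ring, is made from Atp5g1, Atp5g2 and Atp5g3, and all of these genes were linked to a site. Atp5g2 had 42.1 with a pileup of 123 (102 to 147) in an intron at 1398 bp (chr15:102670508-102672058), Atp5g3 had 12.5 with a pileup of 48 (35.4 to 63.6) in an intron at 150 bp, and Atp5g1 had 5.58 with a pileup of 14 (7.65 to 23.5) in an intron at 489 bp. The pileup intervals of these 3 genes do not overlap. The site of Atp5g2 was the strongest of all linked sites beyond 1 kb. In the stator and the membrane part, the values at the TSS were 6.38 for Atp5f1, 6.13 for Atp5h, 5.65 for Atp5j and 5.58 for Atp5mpl. The summit at Atp5f1 was nearer to the TSS of Wdr77, and that at Atp5j to the TSS of Gabpa. Atp5o, which encodes the oligomycin sensitivity protein, had no linked site at its standard entry. A second entry of 243 kb with the same symbol reached over Itsn1, and its 2 sites, with fold enrichments of 27.9 and 6.69, lay in the body of that neighbour. Atp5c1, Atp5e, Atp5j2, Atp5k, Atp5l and Atp5s had no linked site.

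Sequences at the summits of the strongest sites are shown next. The stretches of Ndufa1 (81 bases), Ndufs4 (184) and Atp5g2 (164) cover only a part of the window searched. Elements in the rest of the window are not shown in them. They were taken from GRCm38 without exons, so that Ndufa5 and Cox6c are left out. The site of the long entry of Atp5o, in the body of Itsn1, is shown with its DR4 among the sequences that follow. Capitals mark the matches to the motifs spelled out further on.
Ndufa1, chrX:37191164-37191244, plus strand: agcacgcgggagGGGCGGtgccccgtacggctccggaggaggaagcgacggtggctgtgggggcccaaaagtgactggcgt
Ndufs4, chr13:114387775-114387958, plus strand: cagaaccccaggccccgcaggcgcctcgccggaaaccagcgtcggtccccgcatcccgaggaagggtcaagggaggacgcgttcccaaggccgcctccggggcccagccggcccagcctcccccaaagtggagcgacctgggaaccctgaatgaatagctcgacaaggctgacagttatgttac
Atp5g2, chr15:102670854-102671017, plus strand: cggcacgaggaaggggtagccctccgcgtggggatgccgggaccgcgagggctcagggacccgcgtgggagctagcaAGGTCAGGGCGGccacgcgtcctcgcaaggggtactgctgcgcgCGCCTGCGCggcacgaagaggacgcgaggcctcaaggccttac
Cycs, chr6:50566559-50566759, plus strand: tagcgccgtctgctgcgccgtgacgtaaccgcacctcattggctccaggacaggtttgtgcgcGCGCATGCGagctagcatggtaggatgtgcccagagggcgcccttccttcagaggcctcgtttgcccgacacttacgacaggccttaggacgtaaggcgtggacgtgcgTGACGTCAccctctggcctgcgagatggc
In the stretch from Ndufa1 the capitals are a match to the SP/KLF element, and its DR4 lies just outside, on the side of the gene, and is among the sequences that follow. The window searched at Ndufa1 also held 1 match to the ETS element, outside the stretch shown. The stretch from Ndufs4 held no match to any motif searched. In the intron of Atp5g2 a half-site was joined directly to an SP/KLF element and followed by an NRF1 core on the minus strand. The promoter of Cycs held an NRF1 core and a cAMP response element (CRE), both of which are known from the cytochrome c promoter.

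**Figure D4:**
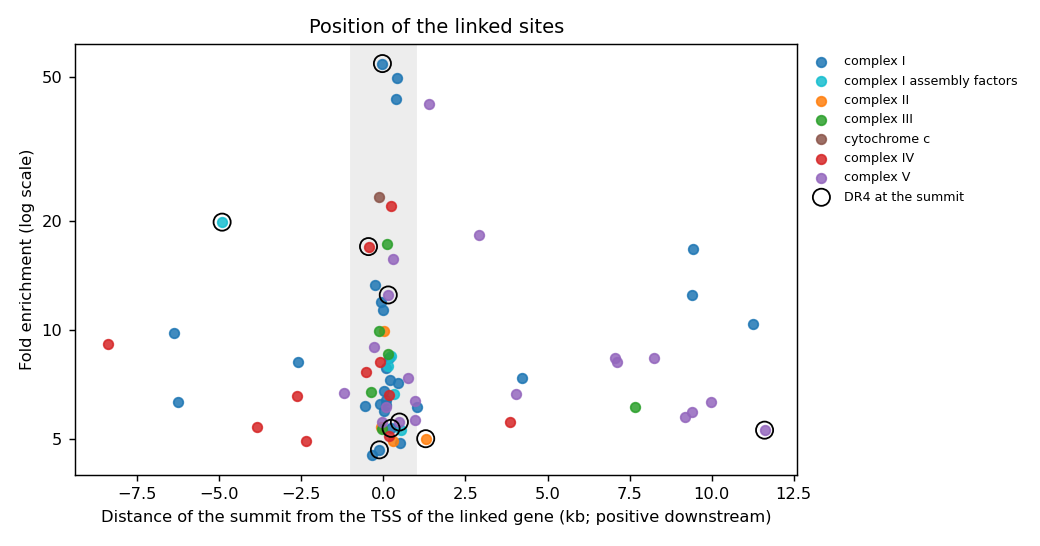
Fold enrichment (log scale) of the linked sites against the distance of the summit from the TSS of the linked gene (kb), coloured by complex. The grey band marks 1 kb on either side, black rings mark a DR4 at the summit, and 75 sites are plotted while 8 sites farther than 12 kb are not. The 48 sites in the band include 3 with values above 40, and 6 of the 48 have a ring.

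DR4 was searched within 100 bp of the summit, on both strands, with at most 2 mismatches in the 12 bases of the half-sites. It was found at 11 of the 83 linked sites, or 13.3% (7.56 to 22.2%), against 13.1% of all 23988 sites. In windows 5 kb to the right of the linked sites it was found in 3.61% (1.24 to 10.1%). At the 48 sites within 1 kb of the TSS the share was 12.5% (5.86 to 24.7%), against 6.35% of all sites at a TSS, and the first of these intervals includes the second value. In a search of the whole site instead of the summit window, the share at these 48 sites was 20.8% (11.7 to 34.3%), against 9.83% of all sites at a TSS, and this interval lies above the second value. Each match is printed here in the direction of the repeat with 7 bases on either side, with the half-sites in capitals, so that the mismatches can be read against AGGTCA.
Ndufa1, chrX:37191131-37191160, minus strand: ggaagagAGGTAAagccGGGTCAcctctga
Atp5o (long entry), chr16:91870350-91870379, minus strand: gcaactaAGGTCAaatgAGGTAAactgctc
Ndufaf7, chr17:78932204-78932233, minus strand: tgtgaagAGGTTGcttcAGGTCAcctgcac
Cox5a, chr9:57520753-57520782, minus strand: ggattcaAGGACAgcctGGGTCAcatgatc
Atp5g3, chr2:73911231-73911260, minus strand: cctcgggAGGTAAgcgaAGGTAAacggagg
Ndufa10, chr1:92448250-92448279, minus strand: tctggaaAGGTCAaggaGGGACActcagga
Atp5g1, chr11:96075170-96075199, plus strand: gctaaggAGGGCAttagAGGTCAgaaggac
Ndufc1, chr3:51408732-51408761, plus strand: cggctcgCGGCCAgtgaAGGTCActgcagg
Ndufc1, chr3:51408742-51408771, plus strand: ccagtgaAGGTCActgcAGGTCGgcctgga
Atp5f1, chr3:105948487-105948516, plus strand: tttctgaAGGTCAccccAGGTCAaatcctt
Sdhc, chr1:171149267-171149296, plus strand: tgacggaAGGTGAcagcAGGACAcacccac
Ndufa11, chr17:56717577-56717606, minus strand: tcaggaaAGGTAAactgAGGCCAtgaagaa
Ndufa11, chr17:56717587-56717616, minus strand: gcccgtgACGTCAggaaAGGTAAactgagg
Only the element in an intron of Atp5f1, at 11612 bp from the TSS, had no mismatch, and its site was weak, with a fold enrichment of 5.30 and a pileup of 14 (7.65 to 23.5). The strongest site, at Ndufa1, had a DR4 with 2 mismatches that was centred 45 bp to the left of the summit. In Ndufc1 and in Ndufa11 there were 2 overlapping matches that share a half-site. The members of the other DR4 sites were the long entry of Atp5o (27.9), Ndufaf7 (19.9), Cox5a (17), Atp5g3 (12.5), Ndufa10 (6.50), Atp5g1 (5.58) and Sdhc (5.02), so that both strong and weak sites held DR4. Of the 24 linked sites with a score of at least 200, 5 had DR4 at the summit (20.8%), against 13.3% of all 83. Ndufa5, Ndufs4, Atp5g2, Cycs and Cox6c, which had 5 of the 7 highest values, had no DR4 at the summit. In the search of the whole site, that of Ndufa5 held a DR4 and those of the other genes named did not.

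A single half-site was more frequent than DR4. AGGTCA without mismatch was found within 100 bp of the summit at 16 of the 48 sites at a TSS, or 33.3% (21.7 to 47.5%), against 12.6% of all 4894 sites at a TSS and 16.7% (8.70 to 29.6%) in windows 5 kb to the right. These matches include those within DR4 and ERR elements, which contain the half-site. The NRF1 core GCGCANGCG was found at 9 sites, or 18.8% (10.2 to 31.9%), against 7.25% of all sites at a TSS and 0 of 48 windows to the right. These 9 were at Cycs, Cox6c, Uqcr11, Atp5g3, Uqcrc1, Ndufb10, Atp5mpl, Sdhd and Ndufa11, and so came from complexes I to V and cytochrome c. For both motifs, and for the CRE, YY1 and ERR elements given further on, the interval of the members lay above the share of all sites at a TSS. The same 2 motifs had shares of 22.2% (11.7 to 38.1%) and 13.9% (6.08 to 28.7%) at the sites of mitochondrial ribosomal genes, and of 18.5% and 3.70% at those of cytosolic ribosomal genes.

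The remaining elements were searched in the same windows. The ETS element CCGGAAG, to which GABP binds, was found at 12.5% (5.86 to 24.7%) of the 48 sites against 9.17%, and the AP-1 element TGANTCA at 6.25% (2.15 to 16.8%) against 3.06%. In the windows 5 kb to the right, AP-1 was found at 10.4% (4.53 to 22.2%), a higher share than at the sites, with overlapping intervals. The ETS element and the CRE were each found in 2.08% of these windows, the SP/KLF element in 4.17%, and the YY1 and ERR elements in 0%. The CRE TGACGTCA was found at 6.25% (2.15 to 16.8%) against 1.49%, and the YY1 element AANATGGCG at 8.33% (3.29 to 19.6%) against 2.51%, from 3 and 4 sites. At the sites of mitochondrial ribosomal genes the YY1 element was found at 11.1% (4.41 to 25.3%), so that its share was not particular to the members. The CRE was found there at 0%. The GC-rich element GGGCGG, bound by SP and KLF factors, went the other way, with 35.4% (23.4 to 49.6%) at the members against 52.8%. The median GC content around the summit was 63.2% at the members and 66.2% at all sites at a TSS, and its part in this share was not tested. The ERR element TCAAGGTCA was found at 2 of 48 sites, or 4.17% (1.15 to 14%), against 0.368%. Both are shown in the direction of the element, which is in capitals.
Ndufaf5, chr2:140170993-140171021, minus strand: gtgaagcttcTCAAGGTCAcacagtcggg
Sdhd, chr9:50603795-50603823, plus strand: tttcgagggcTCAAGGTCActctacaacc
Sdhd held an NRF1 core and an ETS element as well, at a site with a fold enrichment of 5.39, so that a promoter with 3 of the classical elements of respiratory genes had one of the weaker sites.

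**Figure D5:**
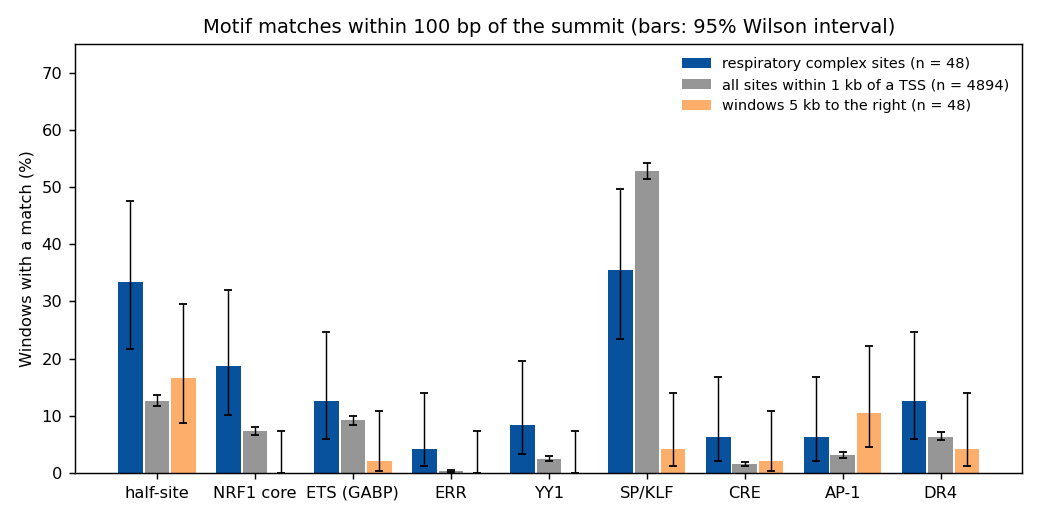
Share of windows (%) with a match within 100 bp of the summit for the 48 member sites at a TSS (blue), all 4894 sites at a protein-coding TSS (grey) and windows 5 kb to the right of the member sites (orange), with 95% Wilson intervals for counting error. The half-site (33.3%) and the NRF1 core (18.8%) are more frequent at the members than at all sites at a TSS (12.6% and 7.25%), and the SP/KLF element (35.4%) is less frequent (52.8%).

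The same motifs were counted in all promoters, taken from 250 bp before to 50 bp after the TSS, whether or not a site was present. The half-site occurred in 22.9% (15.6 to 32.3%) of the 96 member promoters against 14.8% of all promoters, the NRF1 core in 18.8% (12.2 to 27.7%) against 8.30%, the ETS element in 18.8% (12.2 to 27.7%) against 10.8%, the ERR element in 2.08% against 0.474% and DR4 in 5.21% (2.24 to 11.6%) against 2.86%. The SP/KLF element was as frequent in the members, 43.8%, as in all promoters, 43.0%. The YY1 element and the CRE each occurred in 5.21% (2.24 to 11.6%) of the member promoters, against 2.91% and 2.43% of all promoters. Both of these intervals include the share of all promoters. Within the members, the NRF1 core occurred in 27.7% (16.9 to 41.8%) of the 47 promoters with a site at the TSS and in 10.2% (4.44 to 21.8%) of the 49 without one, and these intervals overlap. The half-site occurred in 29.8% (18.7 to 44.0%) and 16.3% (8.51 to 29.0%), again with overlap, and the ETS element in 19.1% and 18.4%. For the YY1 element these shares were 2.13% with and 8.16% without a site, and for the CRE 8.51% and 2.04%, also with overlapping intervals. In the promoters without a site, the shares of the NRF1 core and of the half-site were thus close to those of all promoters.

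Among genes that govern the respiratory genes, sites were frequent. Of 15 transcriptional regulators, 14 had a linked site (93.3%, against 44.7% of all genes). A site at the TSS was found for 8 of the 15 (53.3%, against 23.2% of all genes). For 4 of them a linked site held DR4, which was so for 9.59% of all genes. The gene body counts towards the link, so that long genes have more sequence in which a site can lie. Ppard, a nuclear receptor of fatty acid oxidation, had the strongest, with a fold enrichment of 92.0 at 6417 bp upstream, and Gabpb1, a subunit of GABP, had one of 31.0 at 898 bp downstream, and both genes had a linked DR4 site. The coactivators Ppargc1a and Ppargc1b had 3 and 7 sites, up to 8.80 and 18.0, none within 1 kb of the TSS. Esrra, which encodes ERRα, had 12.2 and Nrf1 had 5.67 at the TSS, and the site of Gabpa (5.65) is the one linked to Atp5j. Esrrb alone had none.

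Of 31 assembly factors that the symbol rule does not take in, 20 had a linked site (64.5%, against 44.7% of all genes). A site at the TSS was present at 15 of them (48.4%, against 23.2% of all genes). Both shares were close to the 62.5% and 49% of the members. The highest values at the TSS were 42.5 for Sdhaf4, a factor of complex II, 30.7 for Bcs1l, which inserts the Rieske protein into complex III, 19.8 for Cox16 and 18.5 for Cox11. Uqcc2, a factor of complex III, had 44.6 at 1466 bp downstream and a linked DR4. Sdhaf1, Sdhaf3, Surf1, Sco1, Sco2, Cox17, Acad9, Ecsit, Nubpl, Atpaf2 and Tmem70 had no linked site.

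The distance limit left out a few sites nearby. The outermost sites that were linked through the distance rule were those of Atp5b at 9969 bp (6.32) and Ndufv1 at 9438 bp (16.7). Just beyond 10 kb lay sites of 17.9 at 10120 bp upstream of Ndufv2, of 9.51 at 10200 bp upstream of Cox8a and of 39.3 at 10221 bp downstream of Atp5d, the last at 581 bp from the TSS of Midn. Of these genes, only Cox8a was otherwise without a linked site, and it was itself the gene with the nearest TSS.

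The label of the cells was compared with the sites at marker genes, although sites are not expression. By the same rule 44.7% of all genes had a linked site. Of 10 markers of GABAergic neurons, 9 had one, among them Gad1, Gad2, Drd1, Drd2, Ppp1r1b and Rgs9, and only Adora2a had none. Of 10 markers of glia and endothelium, 2 had one, namely Mbp and Cx3cr1. Mbp, a myelin gene of oligodendrocytes, had 11 sites with fold enrichments up to 32.7. This is more sites than any of the neuronal markers had, the highest number there being 8 at Gad1 and at Rgs9. These counts include the gene body and so depend on gene length, and the strongest site of Mbp lay 32356 bp from its TSS. The part of other cells of the tissue in the sites of the members was not tested.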

How the data were processed

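ChIP-seq for GS-tagged TRα1 had been carried out on striatum crosslinked with disuccinimidyl glutarate and formaldehyde. Per the submitters' processing notes, Bowtie2 2.3.2.2 and MACS2 2.1.1.20160309.0 were used, and the authors aligned reads to GRCm38 and kept peaks with a score of at least 60. The depth of each library, and whether both ChIP libraries entered peak calling together, is not given in the sources used here. Of the deposited values, pileup is coverage by ChIP fragments (a signal) at the summit, and fold enrichment is its ratio to the local background after adding 1 to both. The authors' −log10 q-value and their score, a truncated multiple of it, served only to describe and filter sites.

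The 95% intervals are Wilson intervals for shares, exact Poisson intervals for pileup and order-statistic intervals for medians. No tests were run, since 1 peak list holds no replicates. Chromosome lengths were checked against the positions, and 0 sites lay past a chromosome end. Links, distances and the DR4 search were tested on simulated data. The rule for full values took the 10 strongest linked sites, the members with the most sites (13 tied at 2 were not all described), each member with DR4, the Sdh genes, Cyc1, Cycs and the isoforms. Members and lists were chosen with earlier results of these data known, and the lists came from general knowledge. The values of 1 member are not reported here. Motifs other than DR4 allowed no mismatch and were searched on both strands. Alternatives changed the score, summit, TSS, distances, members and mismatches. The shares of members within their own range of gene length were added later. The scripts ran under Python 3.11.15 with scipy 1.17.1, numpy 2.4.6, matplotlib 3.10.9 and pandas 2.3.3.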

Additional observations from a re-analysis of the deposited data

How the results depend on the processing

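Of 48 alternative values, 37 stayed within the interval of the value reported, or for the count of sites within 1.5 times of it, and 11 moved beyond. With a score of at least 200, 22.9% of the members had a linked site (all genes 21.9%) and 16.7% one within 1 kb of the TSS (all genes 9.22%), 24 linked sites were left, and the median fold enrichment at the TSS was 14.5. With this score the linked share of the members was therefore close to that of all genes, while the share at the TSS was still the higher one. With links up to 30 kb, 76.0% of the members were linked (all genes 57.7%), to 147 sites of which 32.7% lay within 1 kb. DR4 was found at 4.82% of the linked sites with at most 1 mismatch and at 39.8% with at most 3. A pair of alternatives was chosen after seeing the data. Where only sites with the nearest TSS at the member were counted, 50% of the members were linked (all genes 36.1%) to 56 sites, 39.6% had one at the TSS (all genes 20.9%), and 69.6% of the sites lay within 1 kb. Without the long entry of Atp5o, all 6 values stayed within these limits. No paired analysis was possible because the data were 1 peak list without values for each library, and for the same reason no replicate could be left out. The pileup of 14 at the weakest sites limits what can be said of single genes without a site, which may lie below the score threshold.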

Other observations

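Sites were also counted at genes for the transcription and replication of mitochondrial DNA. Of 12 such genes, 5 had a linked site (41.7%, against 44.7% of all genes) and 3 had one within 1 kb of the TSS (25.0%, against 23.2%). Polg, the mitochondrial DNA polymerase, had a fold enrichment of 18.8 at 122 bp downstream of the TSS, Tfb1m one of 13.1 at 136 bp upstream and Mterf3 one of 5.01 at 102 bp downstream. Tfam, the packaging factor of mitochondrial DNA, had none, nor did Tfb2m, Polrmt, Ssbp1, Mterf1a, Top1mt and Tefm. No test was made with so few genes.

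Of 9 genes of mitochondrial uncouplers and carriers, 6 had a linked site (66.7%, against 44.7% of all genes) and 3 one at the TSS (33.3%, against 23.2%). The adenine nucleotide carriers Slc25a4 and Slc25a5, which exchange ATP for ADP across the inner membrane, had fold enrichments of 17.6 and 15.3 at the TSS, and the phosphate carrier Slc25a3 had 6.26. Slc25a14, Slc25a27 and Slc25a31 of the same list had linked sites beyond 1 kb of the TSS only, with 6.32, 5.58 and 10.2. No site was linked to Ucp1, Ucp2 and Ucp3.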
